A study of Homo sapiens with 12 samples.

Results

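Histone genes were followed in fusion-negative rhabdomyosarcoma (FN-RMS) RD cells and fusion-positive (FP-RMS) Rh30 cells with and without knockdown of KDM3A, a histone demethylase that removes methyl groups from lysine 9 of histone H3. They were taken by name from the table of FPKM (counts of fragments scaled by transcript length and by the fragments mapped in the library): every entry whose name begins with HIST and a cluster number from 1 to 4 followed by H, or with H2AF or H3F3, and the linker genes H1F0 and H1FX, if it was above 0 in at least 3 of the 12 libraries. Of 115 entries with such names, 13 with a pseudogene ending (P and digits) and 23 with too few values above 0 were left out, and 79 remained of 65975 gene identifiers. They comprise 64 replication-dependent genes (15 H2A, 21 H2B, 11 H3, 12 H4 and 5 H1 genes), 11 variant genes (6 H2A, 3 H3 and 2 linker genes) and 4 entries whose PS names mark pseudogenes that the rule did not leave out. Of the 21 H2B genes, 2 (HIST2H2BB and HIST2H2BD) are annotated as transcribed pseudogenes in GENCODE 29 and 1 (HIST2H2BC) is not in it. The highest value of these in any library was 0.745 FPKM.

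The 4 groups of 3 libraries were RD Scramble, RD KDM3A-sh2, Rh30 Scramble and Rh30 KDM3A-sh2. Cells of each line carried a lentiviral Scrambled control shRNA or a KDM3A-targeting shRNA and were selected with puromycin. RNA-seq used 1 KDM3A-targeting shRNA, and each RMS subtype is represented by 1 cell line. RD cells were grown in DMEM and Rh30 cells in RPMI, so a difference between the lines cannot be told apart from a difference between the media. The RNA is labelled polyA RNA, and the labels do not say whether a group's 3 libraries stem from separate cultures, so p-values measure only the spread between these libraries, which may be technical.

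Nucleosomes hold DNA wound on a core of histones H2A, H2B, H3 and H4, and a linker histone (H1) binds where the DNA enters and leaves. Replication-dependent histone genes supply these proteins while DNA is copied in S phase. Their mRNAs normally end in a stem-loop, bound by the stem-loop binding protein SLBP, in place of a poly(A) tail, and have no introns. Variant (replacement) histones such as H3.3 and H2A.Z are made from polyadenylated mRNAs throughout the cell cycle and are put into chromatin by their own chaperones. In a library of polyadenylated RNA, the FPKM of a replication-dependent gene therefore stand for its polyadenylated transcripts and not for all of its mRNA. In RNA from a whole culture, fewer cells in a phase or state and less RNA per cell cannot be told apart.

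The stem-loop and the promoter are the elements that set these gene families apart, and a few of them are shown here for the genes described below. In GENCODE 29 transcripts (GRCh38), a hairpin was searched within 150 bases downstream of the stop codon. It had to have a stem of 6 base pairs that begins with GG and a loop of 4 bases. It was present in 26 of the 29 core (H2A, H2B, H3 or H4) replication-dependent genes that have bases annotated there, 22 to 67 bases after the stop codon (median 34), compared with 0.774% of 19133 protein-coding genes. Of the 11 variant genes, H2AFX alone had it. The elements below run 5′ to 3′ on the strand of the gene, with the hairpin in capitals. HIST2H2BE, HIST1H2BC and HIST1H4H rose in RD cells, HIST1H2BH fell there, HIST1H2BD did not pass the test, and H2AFX is the variant gene with a hairpin.
HIST2H2BE (chr1:149886183-149886208, minus strand): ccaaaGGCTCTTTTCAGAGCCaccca
HIST1H2BH (chr6:26252050-26252075, plus strand): ccaaaGGCTCTTTTCAGAGCCactta
HIST1H2BC (chr6:26123467-26123492, minus strand): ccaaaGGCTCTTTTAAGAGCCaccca
HIST1H2BD (chr6:26158582-26158607, plus strand): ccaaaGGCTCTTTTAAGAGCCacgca
HIST1H4H (chr6:26285126-26285151, minus strand): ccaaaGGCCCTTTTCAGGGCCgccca
H2AFX (chr11:119094893-119094918, minus strand): acaaaGGCCCTTTTAAGGGCCaccac

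All 19 H2A, H2B and H3 hairpins began with the stem GGCTCT, and all 7 H4 hairpins and that of H2AFX with GGCCCT. The GG at the start of each stem was set by the search. HIST2H2BE and HIST1H2BH, whose expression changed in opposite directions in RD cells, share the same 16 hairpin bases, and so do HIST1H2BC, which rose, and HIST1H2BD, which did not pass the test. Of the 64 replication-dependent genes, 22 have more than 200 bases annotated after the stop codon. Their mean FPKM over the 12 libraries had a median of 2.12, and 17 of them reached 1 FPKM. Among the other 42 genes the median was 0.345, and 10 reached 1 FPKM. These values are a description, since annotated length also enters the FPKM.

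RefSeq promoters (GRCh38.p14, 250 bases before to 50 after the start) matched 60 of the 79 histone genes. The motifs searched on both strands were CCAAT, which NF-Y binds, TATAAA, the TATA box, and ATTTGCAT, the octamer bound by OCT-1 (POU2F1). CCAAT was present in 81.7% of these promoters and in 35.7% of all 27305, TATAAA in 61.7% and 12% and ATTTGCAT in 35% and 1.8%. The octamer was found in 10 of 14 H2A, 9 of 13 H2B, 1 of 9 H3 and 0 of 10 H4 promoters. The promoters of HIST1H2BK, the replication-dependent gene with the highest level in RD, and of HIST2H2BE, whose start lies head to head with that of HIST2H2AC, are printed with these motifs in capitals on either strand, neighbouring or overlapping motifs forming 1 run.
HIST1H2BK (chr6:27146809-27147108, minus strand): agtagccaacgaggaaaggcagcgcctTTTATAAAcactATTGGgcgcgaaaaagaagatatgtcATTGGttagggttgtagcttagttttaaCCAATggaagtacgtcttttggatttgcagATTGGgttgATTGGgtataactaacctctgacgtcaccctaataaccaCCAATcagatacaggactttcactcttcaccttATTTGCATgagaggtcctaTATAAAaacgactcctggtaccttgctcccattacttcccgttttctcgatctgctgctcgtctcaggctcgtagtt
HIST2H2BE (chr1:149886633-149886932, minus strand): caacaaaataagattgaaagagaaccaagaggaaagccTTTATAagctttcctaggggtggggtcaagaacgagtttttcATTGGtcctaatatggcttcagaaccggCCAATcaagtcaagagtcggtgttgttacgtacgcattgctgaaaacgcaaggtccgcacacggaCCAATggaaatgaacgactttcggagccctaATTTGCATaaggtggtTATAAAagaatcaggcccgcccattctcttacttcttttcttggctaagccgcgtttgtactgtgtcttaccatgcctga

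The knockdown was measured on KDM3A itself. Its FPKM were 35.8, 33.9 and 30.9 in RD Scramble and 12.0, 11.2 and 13.4 in RD KDM3A-sh2, a 2.62-fold decrease (log2 fold change -1.39 ± 0.08 SE, adjusted p = 5e-05). In Rh30 they were 27.8, 29.2 and 32.0 with Scramble and 13.7, 13.2 and 15.4 with KDM3A-sh2, a 2.03-fold decrease (-1.02 ± 0.08, adjusted p = 0.000348). Fold changes, log2 fold changes and standard errors here and below come from limma on log2(FPKM + 1), which understates changes of genes at a low level, and adjusted p-values are Benjamini-Hochberg values over all genes tested. The muscle regulators MYOD1 and MYOG were high in both lines (mean 112.8 to 1017 FPKM), while MYF5 was listed at 0 in 11 of the 12 libraries and at 0.0272 FPKM in the other. Markers of blood, endothelial, epithelial and liver cells (PTPRC, CDH5, CDH1, ALB, HBB) had group means of at most 0.405 FPKM. EPCAM and PECAM1 reached group means of 6.03 and 0.936 FPKM in Rh30. Summed FPKM per library ran from 1198300 to 1379197, and the depth in reads is unknown because FPKM do not hold it. Values near 1 FPKM in short histone genes rest on few fragments. The Rh30 Scramble libraries had a spread like that of the other groups (median SD over genes 0.0946 on the log2 scale, compared with 0.0828 to 0.0891), although all 3 carry the same final number in their descriptions.

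Histone genes held 0.218% to 0.304% of the FPKM of a library, and most of that came from variant genes. The 11 variant genes summed to 3056 ± 28.7 FPKM (SD, n = 3) in RD Scramble and 2143 ± 32.5 in RD KDM3A-sh2, and to 3864 ± 56.7 in Rh30 Scramble and 3385 ± 73.4 in Rh30 KDM3A-sh2. H3F3B and H2AFZ made up most of these sums, with 37.6% to 39.3% and 24.7% to 26.3% in RD Scramble. The 64 replication-dependent genes summed to 475.5 ± 9.48 FPKM in RD Scramble, 500.8 ± 6.30 in RD KDM3A-sh2, 116.8 ± 7.03 in Rh30 Scramble and 129.5 ± 6.48 in Rh30 KDM3A-sh2. HIST1H2BK alone gave 42.1% to 44.4% of that sum in RD Scramble. With KDM3A-sh2 the sum of the variant genes was thus lower in both lines, with no overlap between groups. The replication-dependent sum was higher in RD, also without overlap (465.1 to 483.6 FPKM with Scramble, 494.0 to 506.4 with KDM3A-sh2). In Rh30 its groups overlapped (110.2 to 124.2 and 122.2 to 134.6). HIST1H2BK had means of 204.3 FPKM in RD Scramble and 239.4 in RD KDM3A-sh2, so this gene alone rose by more than the RD sum.

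**Figure D1:**
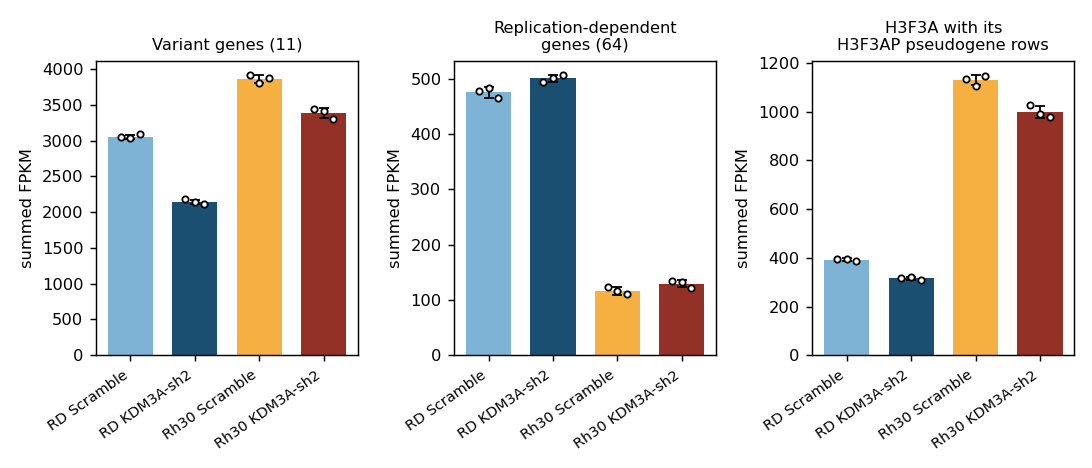
Summed FPKM (y axis, linear from 0) of the 11 variant genes, the 64 replication-dependent genes, and H3F3A with its pseudogene entries, in the 4 groups. Bars are means, error bars SD and open points the 3 libraries. The sum of the variant genes was 3056 and 2143 in RD and 3864 and 3385 in Rh30, while the replication-dependent sum was 475.5 and 500.8 in RD and 116.8 and 129.5 in Rh30.

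Of the 79 histone genes, 40 passed the filter of a mean of 1 FPKM in RD, 30 in Rh30 and 42 in either line. The other 37 had means over the 12 libraries of at most 0.89 FPKM, with 3.22 FPKM as their highest single value, and were not tested for the knockdown, although 1 of them, HIST1H3J, was tested between the Scramble groups (-0.60 ± 0.37, adjusted p = 0.188). In RD cells 15 of the 40 tested genes (37.5%) were lower upon KDM3A knockdown, where 19.5% of all genes were called lower, and 7 (17.5%) were higher, where 21.6% of all genes were called higher. In Rh30 cells 6 of 30 (20%) were lower against 13.2% of all genes, and 2 (6.67%) were higher against 15.3%. These Rh30 counts include 1 lower (HIST1H3PS1) and 1 higher (HIST1H1PS1) pseudogene entry. HIST1H1PS1 is also among the 7 higher in RD, and it passed the filter because of its KDM3A-sh2 values. Leaving out Rh30 Scramble replicate 1 or Rh30 KDM3A-sh2 replicate 3 left 3 lower genes in Rh30, and leaving out Rh30 KDM3A-sh2 replicate 1 or replicate 2 left 1 higher gene. By family, of the 11 variant genes tested in RD, 10 fell and 1 rose, with a median log2 fold change of -0.54 (0.007 over all genes tested), and of the 10 tested in Rh30, 5 fell and none rose (median -0.14, 0.031 over all genes). Of 27 replication-dependent genes tested in RD, 5 fell and 5 rose (median 0.02), and of 18 tested in Rh30, none fell and 1 rose (median 0.02). Among the histone genes tested in both lines, a number that was not counted, 5 were lower in both. Another 2 were higher in both, HIST1H2BK and the pseudogene entry HIST1H1PS1. As a reference, 926 of 11346 genes tested in both lines and with a 3′ UTR annotated were lower in both. That reference leaves out genes without an annotated 3′ UTR, such as HIST1H2BK, so it is not the same kind of set as the histone genes. The share of all genes higher in both was not counted, and both counts are a description. Of the histone genes called in RD, 11 were tested but not called in Rh30 and 4 were not tested in Rh30.

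**Figure D2:**
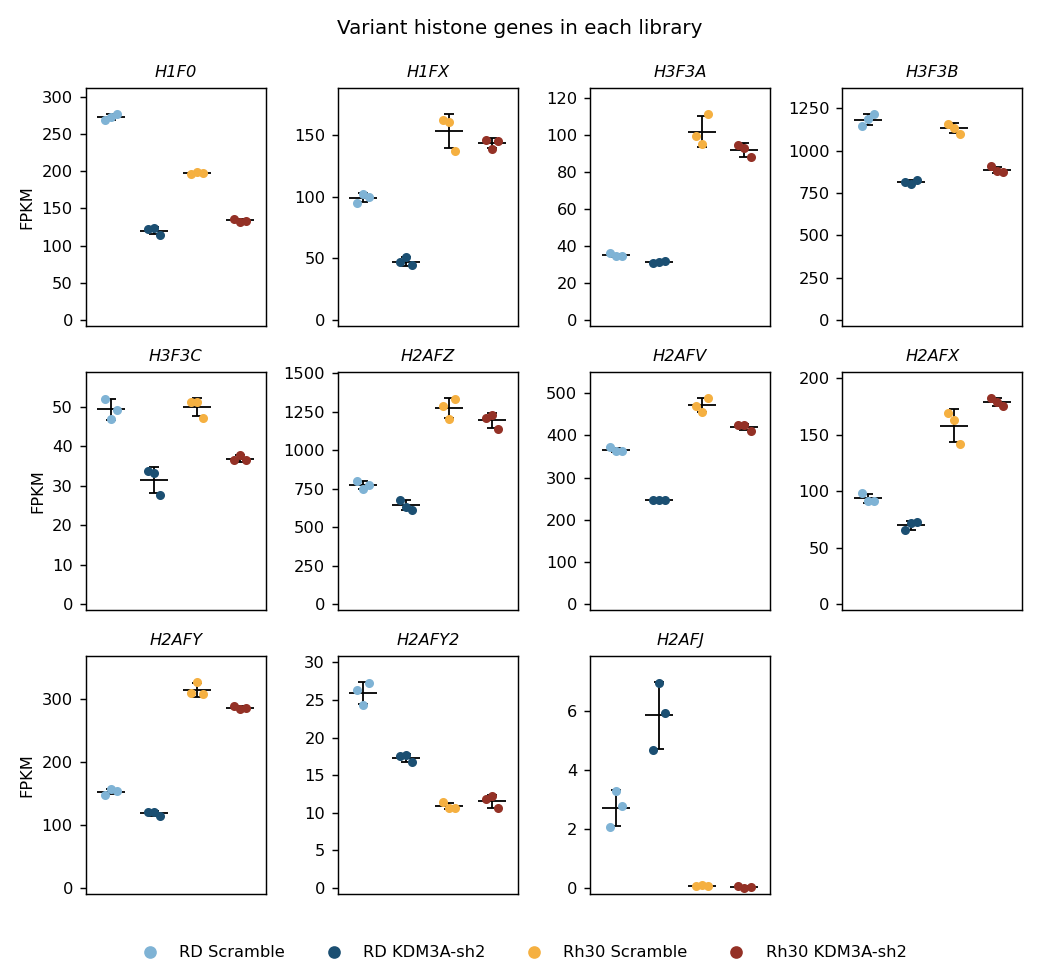
FPKM (y axes, linear, each panel with its own scale) of the 11 variant histone genes in each library. Points are libraries, horizontal lines means and error bars SD (n = 3 in each of the 4 groups). All panels but that of H2AFJ show RD KDM3A-sh2 below RD Scramble with no overlap, and in Rh30 H1F0, H3F3B and H3F3C show the clearest separation. The share of all genes without overlap was not counted.

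Among the variant genes, the linker genes fell the most in RD. H1F0 encodes H1.0, the linker histone of differentiated and resting cells. Its FPKM were 268.1, 272.4 and 276.7 in RD Scramble and 121.7, 122.9 and 114.6 in RD KDM3A-sh2, a 2.27-fold decrease (log2 fold change -1.18 ± 0.04 SE, adjusted p = 1.18e-05). In Rh30 they were 196.6, 198.7 and 196.8 with Scramble and 136.1, 132.1 and 133.4 with KDM3A-sh2, a 1.47-fold decrease (-0.56 ± 0.03, adjusted p = 0.00012). H1F0 was thus higher in RD than in Rh30 in the control cells. After knockdown it was lower in RD (114.6 to 122.9 FPKM) than in Rh30 (132.1 to 136.1), again with no overlap. H1FX encodes H1.10, a linker variant. In RD it went from 95.3, 102.6 and 100.2 FPKM to 47.1, 51.1 and 44.4, a 2.07-fold decrease (-1.05 ± 0.06, adjusted p = 4.26e-05). In Rh30 it was 162.5, 160.7 and 137.5 with Scramble and 146.6, 138.9 and 145.7 with KDM3A-sh2, and these values overlap (-0.09 ± 0.07, adjusted p = 0.363). Without Rh30 Scramble replicate 3, the lowest of its group, H1FX passed the test in Rh30 (-0.17, adjusted p = 0.0299).

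H3F3A and H3F3B encode the same protein, the variant H3.3, which is put into chromatin outside replication. H3F3B was the histone gene with the highest mean, at 1147, 1188 and 1214 FPKM in RD Scramble and 812.2, 802.2 and 825.3 in RD KDM3A-sh2 (1.45-fold lower, log2 fold change -0.54 ± 0.03 SE, adjusted p = 4.87e-05). In Rh30 it fell from 1159, 1135 and 1101 FPKM to 907.8, 880.1 and 876.1 (1.27-fold, -0.35 ± 0.03, adjusted p = 0.000628). Every knockdown library of either line lay below every Scramble library. H3F3C, a primate retrocopy of H3F3B whose reads cannot be fully separated from those of its parent, went from 46.9 to 52.0 FPKM in RD Scramble to 27.6 to 33.8 (-0.64 ± 0.08, adjusted p = 0.00121), and from 47.3 to 51.3 in Rh30 Scramble to 36.4 to 37.9 (-0.42 ± 0.05, adjusted p = 0.00156). H3F3A changed least among the variant genes that fell in RD, from 36.0, 34.8 and 34.4 FPKM to 30.5, 31.1 and 32.1 (-0.16 ± 0.04, adjusted p = 0.0238). This call was lost with RD Scramble replicate 1 or 2 or RD KDM3A-sh2 replicate 1 or 2 left out (adjusted p = 0.0612 to 0.0785) and with libraries scaled to the same sum (-0.13, adjusted p = 0.0795). In Rh30 H3F3A was 99.2, 94.9 and 111.3 FPKM with Scramble and 94.7, 92.9 and 87.8 with KDM3A-sh2 (-0.15 ± 0.07, adjusted p = 0.144). Pseudogene copies of H3F3A, named H3F3AP, carry more FPKM than H3F3A itself, with sums of 357.5 ± 4.39 in RD Scramble and 1028 ± 14.5 in Rh30 Scramble. With these entries added to it, H3F3A summed to 392.6 ± 4.87 FPKM with Scramble and 315.4 ± 7.00 with KDM3A-sh2 in RD (-0.32, adjusted p = 0.000312) and 1130 ± 21.4 and 999.9 ± 25.3 in Rh30 (-0.18, adjusted p = 0.00787), so in Rh30 the call depends on where these reads are counted.

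The H2A.Z genes fell in RD. H2AFZ and H2AFV encode the forms of H2A.Z, the H2A variant placed at promoters by the SRCAP and EP400 complexes. H2AFZ was 801.7, 748.3 and 776.1 FPKM in RD Scramble and 678.6, 633.6 and 614.8 in RD KDM3A-sh2 (1.21-fold lower, -0.27 ± 0.05, adjusted p = 0.0035). In Rh30 its values were 1286, 1206 and 1334 with Scramble and 1211, 1232 and 1140 with KDM3A-sh2, which overlap (-0.09 ± 0.05, adjusted p = 0.19). H2AFV was 371.8, 363.1 and 362.2 FPKM in RD Scramble and 246.3, 247.6 and 246.4 in RD KDM3A-sh2 (1.48-fold lower, -0.57 ± 0.03, adjusted p = 2.49e-05). In Rh30 it went from 470.8, 455.3 and 488.8 to 424.2, 425.5 and 411.0 (1.12-fold lower, -0.17 ± 0.04, adjusted p = 0.0168). The Rh30 call of H2AFV was lost with Rh30 Scramble replicate 1 or Rh30 KDM3A-sh2 replicate 1 or 3 left out (adjusted p = 0.0504 to 0.0527).

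H2AFX encodes H2A.X, which is phosphorylated around DNA breaks. In RD its FPKM went from 98.4, 91.6 and 91.7 to 65.4, 71.5 and 72.3 (1.34-fold lower, -0.43 ± 0.05, adjusted p = 0.000966). In Rh30 every KDM3A-sh2 value (182.6, 179.2 and 175.3) lay above every Scramble value (169.3, 163.5 and 141.5), but the change did not pass the test (0.18 ± 0.07, adjusted p = 0.0884). It did in a fit over all 12 libraries (0.18, adjusted p = 0.0495). H2AFY and H2AFY2 encode macroH2A1 and macroH2A2, H2A variants with a large globular domain that are enriched on the inactive X chromosome. In RD H2AFY fell from 148.2, 157.3 and 153.3 FPKM to 120.5, 120.0 and 114.0 (1.29-fold, -0.37 ± 0.04, adjusted p = 0.000486). In Rh30 it fell from 308.3, 326.3 and 306.7 to 288.0, 283.2 and 285.2 (1.10-fold, -0.14 ± 0.03, adjusted p = 0.0284). Its Rh30 call was lost in each fit that left out 1 Rh30 library other than Scramble replicate 3 (adjusted p = 0.0574 to 0.0864). H2AFY2 fell from 26.3, 24.4 and 27.2 FPKM to 17.5, 17.6 and 16.7 in RD (1.47-fold, -0.56 ± 0.06, adjusted p = 0.000442), while its Rh30 values overlapped between 10.6 and 12.3 FPKM (0.07 ± 0.07, adjusted p = 0.509). H2AFJ, which encodes H2A.J, a variant that accumulates in senescent cells, was the variant gene that rose in RD. It went from 2.08, 3.28 and 2.78 FPKM to 4.67, 6.93 and 5.91 (1.84-fold higher, 0.88 ± 0.17, adjusted p = 0.0063). In Rh30 it was between 0.0162 and 0.0983 FPKM in every library and was not tested.

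**Figure D3:**
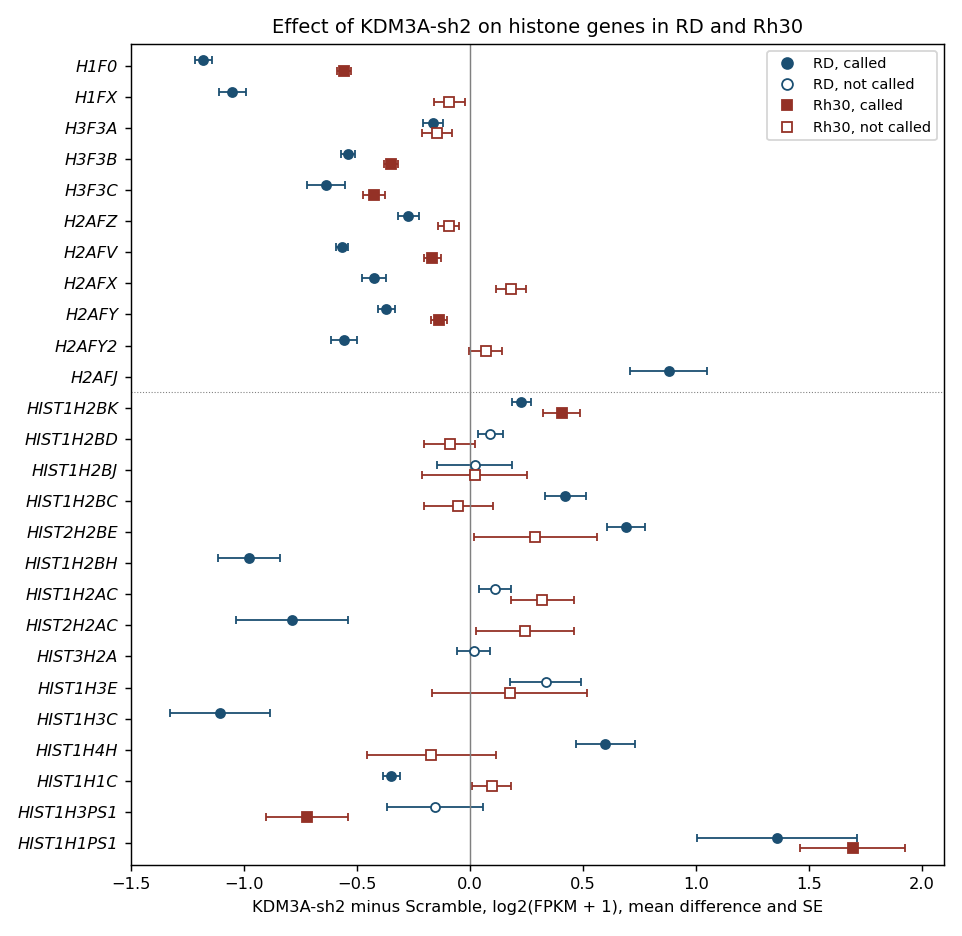
Difference between KDM3A-sh2 and Scramble (x axis, log2(FPKM + 1), mean difference with SE as error bars) for 26 histone genes in RD (circles) and Rh30 (squares). Filled symbols passed an adjusted p of 0.05, open ones did not, and a missing symbol means that the gene was not tested. Variant genes stand above the dotted line, where 10 of 11 RD circles lie left of 0, and HIST genes below it, where RD circles lie on both sides.

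Among the replication-dependent genes, 27 were tested in RD and 18 in Rh30, 5 fell and 5 rose in RD, and 1 rose in Rh30. Of 11 H2B genes tested in RD, 3 (27.3%) rose and 1 (9.09%) fell, against 21.6% and 19.5% of all genes. HIST1H2BK was 201.3, 214.5 and 197.0 FPKM in RD Scramble and 236.1, 234.6 and 247.3 in RD KDM3A-sh2 (1.17-fold higher, 0.23 ± 0.04, adjusted p = 0.00543). In Rh30 it was 29.5, 25.9 and 24.1 with Scramble and 36.9, 33.5 and 35.7 with KDM3A-sh2 (1.33-fold higher, 0.41 ± 0.08, adjusted p = 0.0118). It was the replication-dependent gene that rose in both lines. HIST2H2BE rose in RD from 13.6, 11.8 and 11.6 FPKM to 19.4, 19.7 and 22.3 (1.61-fold, 0.69 ± 0.08, adjusted p = 0.000836), and its Rh30 values overlapped between 1.12 and 3.78 FPKM (0.29 ± 0.27, adjusted p = 0.469). HIST1H2BC rose in RD from 14.8, 13.7 and 12.8 FPKM to 16.7, 19.1 and 20.6 (1.34-fold, 0.42 ± 0.09, adjusted p = 0.00959). This call was lost in an alternative test on unlogged FPKM (adjusted p = 0.0501). In Rh30 HIST1H2BC was 3.32 to 5.34 FPKM (-0.05 ± 0.15, adjusted p = 0.832). HIST1H2BD, at 43.4 to 48.0 FPKM in RD Scramble and 45.8 to 50.01 in RD KDM3A-sh2, and HIST1H2BJ, at 21.6 to 23.5 and 17.1 to 28.1, did not pass the test in either line. HIST1H2BH was the H2B gene that fell, from 6.03, 6.27 and 5.63 FPKM to 3.20, 2.52 and 2.00 in RD (1.97-fold, -0.98 ± 0.14, adjusted p = 0.00156). In Rh30 it was listed at 0 in 2 Scramble libraries and at 0.247 in the other, and at 0.249 to 0.262 with KDM3A-sh2, too low to test.

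Of 8 H2A genes tested in RD, 2 (25%) fell and 1 (12.5%) rose, against 19.5% and 21.6% of all genes. Of 6 tested in Rh30 none was called, where 13.2% of all genes were called lower and 15.3% higher. HIST1H2AC was 18.1, 17.5 and 15.7 FPKM in RD Scramble and 19.4, 17.9 and 18.1 in RD KDM3A-sh2 (0.11 ± 0.07, adjusted p = 0.25), and 3.51 to 4.41 and 4.12 to 5.92 in Rh30 (0.32 ± 0.14, adjusted p = 0.132). HIST2H2AC fell in RD from 3.97, 5.40 and 6.93 FPKM to 3.28, 3.36 and 1.63 (1.73-fold, -0.79 ± 0.25, adjusted p = 0.0411). That call was lost with RD Scramble replicate 2 or 3 or RD KDM3A-sh2 replicate 1 or 3 left out (adjusted p = 0.0531 to 0.118), and its Rh30 values overlapped between 3.46 and 6.48 FPKM. HIST3H2A was 9.67 to 10.6 FPKM in RD Scramble and 9.41 to 10.7 in RD KDM3A-sh2 (0.02 ± 0.07, adjusted p = 0.879) and at most 0.375 in Rh30. Near the filter, 2 more H2A genes were called in RD, and they are named here after their values were seen. HIST1H2AG rose in RD from 0.957, 0.978 and 0.927 FPKM to 1.66, 1.77 and 2.09 (0.54 ± 0.13, adjusted p = 0.0145) and passed the filter because of its KDM3A-sh2 values. HIST1H2AD fell from 2.70, 3.26 and 2.50 to 2.08, 1.60 and 1.80 (-0.43 ± 0.13, adjusted p = 0.0346).

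Of the H3 and H4 genes, few were at a level that allowed a test. HIST1H3E was 3.58 to 5.55 FPKM in RD Scramble and 5.18 to 6.96 in RD KDM3A-sh2 (0.34 ± 0.16, adjusted p = 0.136). HIST1H3C fell in RD from 3.18, 1.91 and 1.81 FPKM to 0.633, 0.216 and 0.736 (-1.10 ± 0.22, adjusted p = 0.00725), passed the filter because of its Scramble values, lost its call in the test on unlogged FPKM (adjusted p = 0.0557) and was listed at 0 in all 6 Rh30 libraries. HIST1H4H rose in RD from 6.49, 7.44 and 7.84 FPKM to 9.42, 13.3 and 12.0 (1.52-fold, 0.60 ± 0.13, adjusted p = 0.0101), a call that was lost in a fit over all 12 libraries (adjusted p = 0.0579) and in the test on unlogged FPKM (adjusted p = 0.0632), and was 0.735 to 2.49 FPKM in Rh30 (-0.17 ± 0.29, adjusted p = 0.69). Of the 5 replication-dependent linker genes, HIST1H1C was the 1 at a level to test. HIST1H1C encodes H1.2. It fell in RD from 75.0, 76.4 and 74.3 FPKM to 59.6, 59.7 and 57.4 (1.27-fold, -0.35 ± 0.04, adjusted p = 0.000448), and its Rh30 values overlapped between 26.4 and 34.3 FPKM (0.10 ± 0.08, adjusted p = 0.435). Histone genes of a family have near-identical coding parts, so the split of reads between them by the authors' counting is uncertain.

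**Figure D4:**
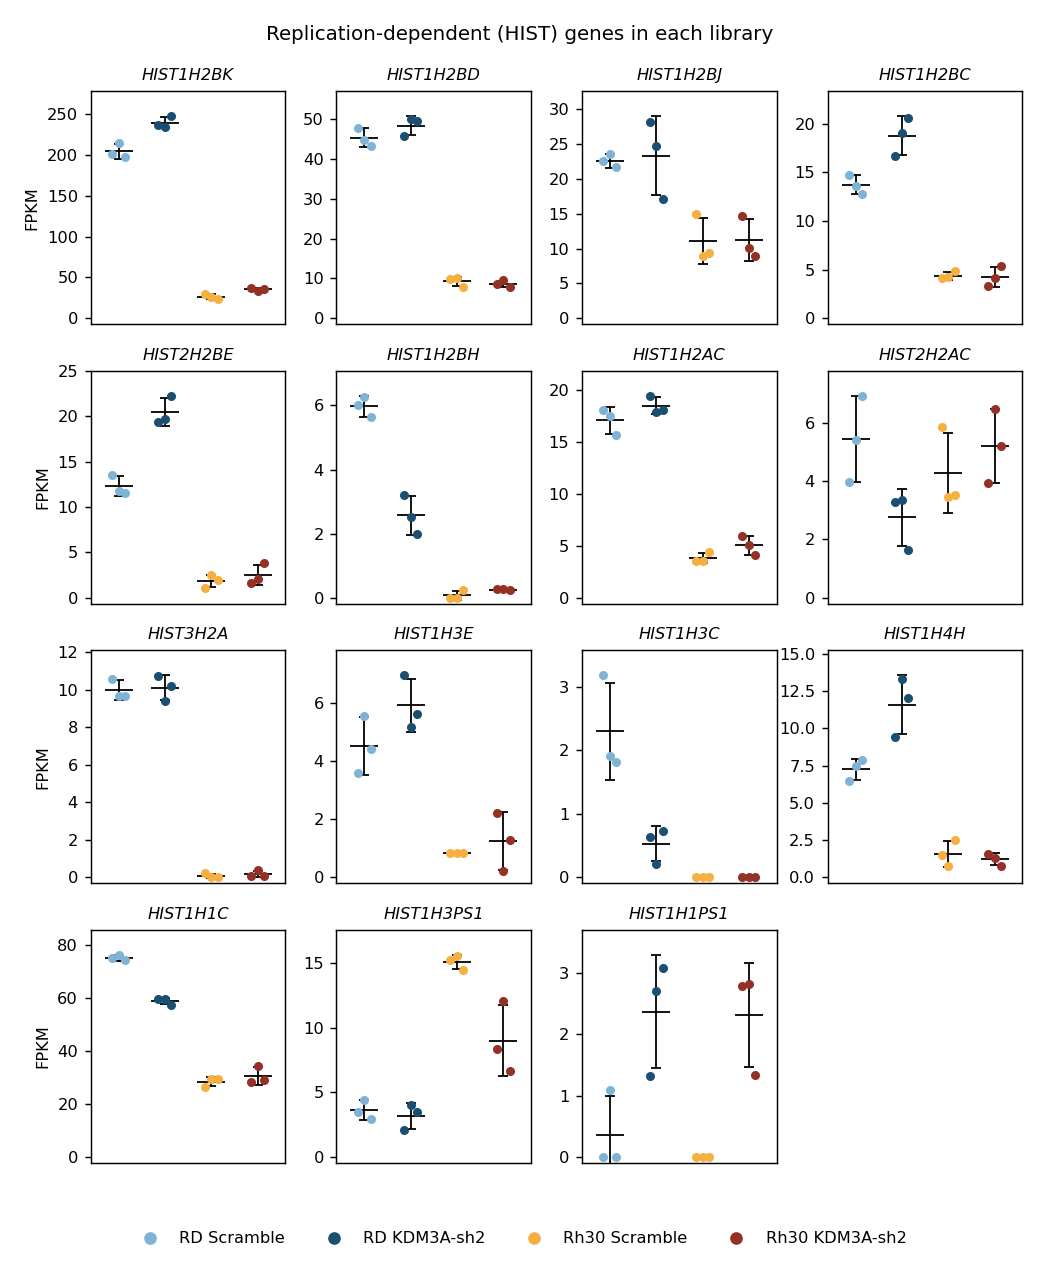
FPKM (y axes, linear, each panel with its own scale) of 13 replication-dependent genes and 2 pseudogene entries (PS names) in each library. Points are libraries, horizontal lines means and error bars SD (n = 3 in each of the 4 groups; groups listed at 0 throughout have no mean line). In most panels the RD libraries stand far above the Rh30 libraries, as for HIST1H2BK at 197.0 to 247.3 against 24.1 to 36.9 FPKM.

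Both pseudogene entries that were tested were called in Rh30. HIST1H3PS1 fell in Rh30 from 15.2, 15.6 and 14.5 FPKM to 8.34, 12.0 and 6.65 (1.65-fold, -0.72 ± 0.18, adjusted p = 0.0272) and was 2.89 to 4.44 and 2.08 to 4.02 FPKM in RD (-0.15 ± 0.21, adjusted p = 0.6). The Rh30 call was lost with any 1 library left out other than KDM3A-sh2 replicate 2 (adjusted p = 0.0503 to 0.08). HIST1H1PS1 was listed at 0 in all Rh30 Scramble libraries and at 2.79, 2.82 and 1.34 FPKM in Rh30 KDM3A-sh2 (adjusted p = 0.00292), and at 0, 1.09 and 0 in RD Scramble and 1.33, 2.71 and 3.08 in RD KDM3A-sh2 (adjusted p = 0.0209). It passed the filter because of its KDM3A-sh2 values, and its RD call was lost with RD Scramble replicate 1 or 3 or RD KDM3A-sh2 replicate 2 or 3 left out (adjusted p = 0.0641 to 0.0665).

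Position was compared next, since 54 of the HIST entries lie within 2.17 megabases of chromosome 6 and many start head to head with a neighbour on the other strand. There were 12 such pairs of replication-dependent genes, with 138 to 356 bases between the annotated starts. Without the pair of HIST2H2AA3 and the annotated pseudogene HIST2H2BD, there were 11, with 218 to 356 bases. In 6 of them both genes were tested in RD. Neither gene was called in 2 pairs, 1 gene was called in 3 pairs, and in 1 pair the genes were called in opposite directions, while in 0 pairs both were called the same way. These pair counts were not set beside those of other gene pairs. The opposite calls were those of HIST2H2BE, higher, and HIST2H2AC, lower, which have 322 bases between their starts. The promoter window printed for HIST2H2BE lies mostly between these starts. The HIST2H2AC call was lost in the test on unlogged FPKM (adjusted p = 0.125), without a filter on low values (0.115) and with the replicate number as a block (0.0912). The pair of HIST1H2BC, which rose, and HIST1H2AC, which did not pass the test, has 218 bases between the starts. In Rh30, 5 pairs had both genes tested, and 1 of them held a call, that of HIST1H2BK beside HIST1H2AH. HIST1H2AH itself was 1.17 to 1.91 FPKM in Rh30 Scramble and 0.253 to 1.25 in Rh30 KDM3A-sh2 (-0.63 ± 0.25, adjusted p = 0.112).

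The lines were then compared for the size of the change itself, as the interaction of line and shRNA over all 12 libraries. Of 40 histone genes tested, 9 (22.5%) had a higher log2 fold change in Rh30 than in RD, where 14.4% of all genes did, and 1 (2.5%) a lower one, where 13.5% did. Of the 9, 7 were variant genes. The difference was 0.96 ± 0.10 (SE) for H1FX (adjusted p = 4.45e-05), 0.62 ± 0.04 for H1F0 (adjusted p = 4.34e-06), 0.61 ± 0.09 for H2AFX (adjusted p = 0.000669) and 0.63 ± 0.09 for H2AFY2 (adjusted p = 0.000457). For H3F3B and H2AFY, which fell in both lines, it was 0.19 ± 0.04 (adjusted p = 0.00676) and 0.23 ± 0.05 (adjusted p = 0.00551), a larger drop in RD on the log2 scale. For H2AFY this call was lost in the alternative test on unlogged FPKM (adjusted p = 0.557). The difference for H2AFZ (0.18 ± 0.07, adjusted p = 0.0841), H3F3C (0.21 ± 0.10, adjusted p = 0.151) and HIST1H2BK (0.18 ± 0.09, adjusted p = 0.193) did not pass the test. For H3F3A it was 0.02 (adjusted p = 0.898), and with its pseudogene entries added it passed the test (0.14, adjusted p = 0.0247). KDM3A fell less in Rh30 than in RD (0.37 ± 0.12, adjusted p = 0.0388), and the part of this difference in knockdown in the histone results was not tested.

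In the control cells, many replication-dependent genes were higher in RD than in Rh30 and several variant genes were higher in Rh30. Of the 64 replication-dependent genes, 51 had a higher mean in RD Scramble, a share that was not counted over all genes. Of the 64, 11 were listed at 0 in all Rh30 Scramble libraries and 0 in all RD Scramble libraries. These shares were not counted over all genes either. A gene at 0 in all Rh30 libraries, such as HIST1H3G, met the rule through RD alone and had no way to be higher in Rh30. The counts of 51 and of 11 are therefore a description. The sum of the 64 genes, of which HIST1H2BK is a large part, was 4.07 times as high in RD Scramble as in Rh30 Scramble. Of 41 histone genes tested, 23 (56.1%) were lower in Rh30, where 39.6% of all genes were, and 7 (17.1%) were higher, where 35% were. A gene with 1 line below 1 FPKM may have passed the filter through the other line alone and so had to differ. Of the 15 replication-dependent genes with means of at least 1 FPKM in both lines, 9 were lower in Rh30 and 0 were higher, and of 13 that reached it in RD alone, 11 were lower. HIST1H2BK was 7.48-fold lower in Rh30 (log2 fold change -2.90 ± 0.08 SE, adjusted p = 1.21e-07), HIST1H2BD 4.55-fold (-2.19 ± 0.10, adjusted p = 1.26e-06) and HIST1H1C 2.59-fold (-1.37 ± 0.05, adjusted p = 7.4e-07). HIST3H2A, at 9.67 to 10.6 FPKM in RD Scramble, was at 0.209, 0 and 0 in Rh30 Scramble.

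Variant genes had no common direction between the lines. H3F3A was 2.84-fold higher in Rh30 Scramble than in RD Scramble (1.51 ± 0.06, adjusted p = 1.06e-06), and with its pseudogene entries the sum was 2.88 times as high. H2AFY was 2.05-fold higher in Rh30 (1.03 ± 0.04, adjusted p = 6.69e-07), H2AFX 1.67-fold (0.74 ± 0.07, adjusted p = 7.19e-05), H2AFZ 1.64-fold (0.72 ± 0.05, adjusted p = 7.87e-06), H1FX 1.54-fold (0.62 ± 0.07, adjusted p = 0.000165) and H2AFV 1.29-fold (0.37 ± 0.04, adjusted p = 6.84e-05). H2AFY2 was 2.26-fold lower (-1.18 ± 0.06, adjusted p = 3.39e-06), H1F0 1.38-fold lower (-0.46 ± 0.03, adjusted p = 7.66e-06), and H2AFJ also lower (-1.78 ± 0.15, adjusted p = 3.46e-05). The difference of H3F3B (-0.06 ± 0.03, adjusted p = 0.129) and H3F3C (0.02 ± 0.06, adjusted p = 0.801) did not pass the test. The pseudogene entry HIST1H3PS1 was higher in Rh30 (1.82 ± 0.13, adjusted p = 1.17e-05). With libraries scaled to the same sum, the median of all genes moved from -0.039 to -0.142 on the log2 scale, H3F3B passed the test (-0.17, adjusted p = 0.00187) and H3F3C changed its sign (-0.09, adjusted p = 0.217).

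**Figure D5:**
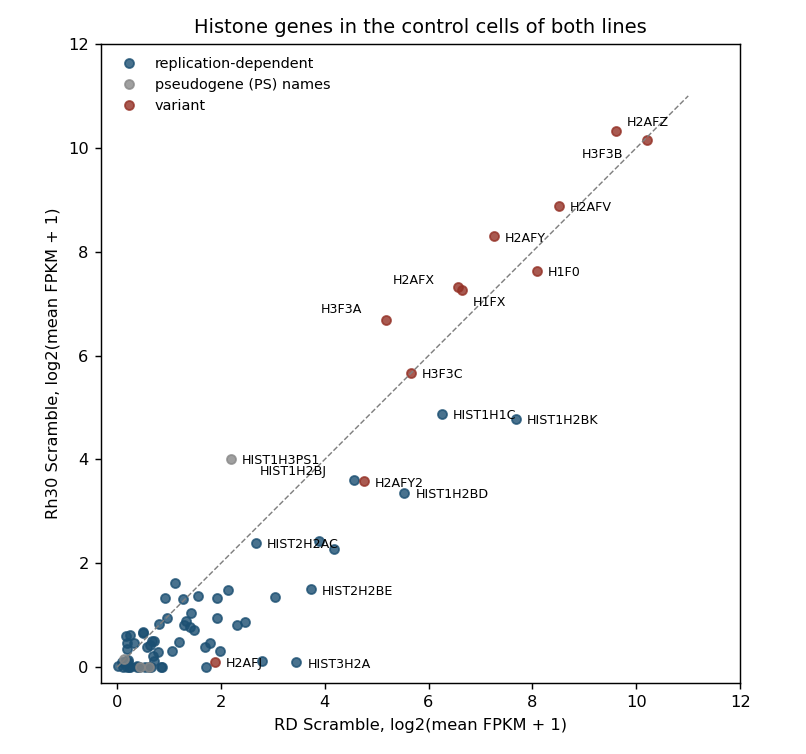
Mean level of the 79 histone genes in RD Scramble (x axis) and Rh30 Scramble (y axis), both as log2(mean FPKM + 1), with the line of equal levels dashed. Most replication-dependent genes lie below the line (51 of 64 have a higher mean in RD), and variant genes lie on both sides, with H3F3A 2.84-fold higher in Rh30 and H2AFY2 2.26-fold lower. The share of all genes with a higher mean in RD was not counted.

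Genes that make, process and place histones were followed in lists written by hand. Of 35 S phase genes (replication factors and nucleotide synthesis), 31 fell (88.6%, against 19.5% of all genes) and 1 rose in RD (2.86%, against 21.6%), with a median of -0.54 (0.007 over all genes). In Rh30, 6 fell (17.1%, against 13.2% of all genes) and 4 rose (11.4%, against 15.3%), shares near those of all genes, with a median of 0.02 (0.031 over all genes). In RD the drop was largest for RRM2, a subunit of ribonucleotide reductase (225.9 to 80.4 FPKM, -1.48 ± 0.05, adjusted p = 1.18e-05), LIG1, the DNA ligase of replication (84.8 to 34.2, -1.29 ± 0.06), and TYMS, thymidylate synthase (232.4 to 99.9, -1.21 ± 0.04), and GINS3 of the replicative helicase rose (14.7 to 21.1, 0.49 ± 0.06). In Rh30 RRM1 (207.4 to 153.6 FPKM, -0.43 ± 0.04), CDC6 (122.8 to 98.3, -0.32 ± 0.04) and POLA1 (34.3 to 27.3, -0.32 ± 0.06) fell the most, and GINS3 (31.7 to 48.3, 0.59 ± 0.05), MCM5 (120.7 to 156.0, 0.37 ± 0.04) and CDT1 (21.0 to 27.1, 0.36 ± 0.09) rose. These S phase genes thus moved in RD in the direction of 10 of the 11 variant genes, and their part in the histone results was not tested.

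Of 36 histone chaperones and assembly factors, 23 fell (63.9%) and 3 rose (8.33%) in RD, with a median of -0.29, and 8 fell (22.2%) and 2 rose (5.56%) in Rh30, with a median of -0.03, against the same shares and medians of all genes. In RD the drop was largest for HJURP, the chaperone of the centromeric H3 variant (154.7 to 66.9 FPKM, -1.20 ± 0.07, adjusted p = 3.95e-05), CENPA, that variant itself (39.7 to 18.5, -1.06 ± 0.06), and ASF1B, an H3-H4 chaperone (53.0 to 25.7, -1.02 ± 0.05), while SET (240.0 to 295.5, 0.30 ± 0.03), ZNHIT1 (121.9 to 142.9, 0.23 ± 0.03) and CABIN1 (0.21 ± 0.05) rose. In Rh30 DAXX, which places H3.3 (111.0 to 82.9 FPKM, -0.42 ± 0.04, adjusted p = 0.000801), ANP32E, which removes H2A.Z (153.6 to 122.6, -0.32 ± 0.04), and the kinase TLK1 (24.1 to 19.1, -0.32 ± 0.05) fell the most, and SET (331.5 to 418.4, 0.33 ± 0.04) and EP400 (26.5 to 30.3, 0.19 ± 0.05) rose. SET was the gene of these that rose in both lines.

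Of 30 factors of histone mRNA processing and transcription, 15 fell (50%, against 19.5% of all genes) and 4 rose (13.3%, against 21.6%) in RD, with a median of -0.18. In Rh30, 3 fell (10%, against 13.2% of all genes) and 2 rose (6.67%, against 15.3%), with a median of -0.02, so both Rh30 shares lay below those of all genes. In RD the cyclin CCNE2 (17.4 to 8.69 FPKM, -0.93 ± 0.07, adjusted p = 0.000103), SRRT (ARS2; 230.4 to 161.3, -0.51 ± 0.05) and CDK2 (81.2 to 57.3, -0.50 ± 0.05) fell the most, and LSM10 (89.2 to 123.9, 0.47 ± 0.06), MBNL1 (49.97 to 68.5, 0.45 ± 0.08) and LSM11 (5.01 to 6.38, 0.30 ± 0.07) rose. LSM10 and LSM11 are the subunits that mark the U7 particle, which cuts histone mRNA downstream of the stem-loop. In Rh30 NFYA, a subunit of the factor that binds CCAAT (39.1 to 29.1 FPKM, -0.41 ± 0.04, adjusted p = 0.00118), SRRT (309.2 to 275.9, -0.16 ± 0.04) and CPSF3, the nuclease that makes the cut (83.6 to 76.5, -0.12 ± 0.03) fell, and LSM10 (64.8 to 74.8, 0.21 ± 0.06) and CCNE1 (60.2 to 68.5, 0.18 ± 0.04) rose. SRRT was lower and LSM10 higher in both lines.

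The 7-base word TGAAGCA is present in the annotated 3′ UTR of 36.7% of 926 genes that were lower in both lines, compared with 16.7% of 11346 genes tested in both. Of 30 histone genes tested in a line and with a 3′ UTR annotated, 1 held it, HIST1H2AG, which rose in RD and has 1827 bases of 3′ UTR. A long 3′ UTR has more places for a word than a short one, and the shares were not adjusted for length. They are a description, and no conclusion about the histone genes is drawn from them.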

How the data were processed

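RNA-seq of 12 libraries (3 in each of RD Scramble, RD KDM3A-sh2, Rh30 Scramble and Rh30 KDM3A-sh2) was analysed from a table of FPKM for 66095 entries. Per the labels, polyA RNA was made into directional mRNA libraries, and per the submitters' processing notes the authors used GSNAP, SAMtools and Cufflinks with GRCh38 before they deposited the FPKM; the annotation release and strand setting are not given in the sources used here. Placeholder values in 17 genes were treated as missing, and 0 histone genes had one.

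Genes whose FPKM averaged 1 or more over a fit's libraries were tested on log2(FPKM + 1) with limma 3.58.1 in R 4.3.3 (lmFit, eBayes with a trend), two-sided, with Benjamini-Hochberg adjustment over all genes tested and a threshold of 0.05. Because the paper names ANOVA on FPKM, a linear model on unlogged FPKM with the same filter and adjustment was run as an alternative. It does not repeat the paper's own processing, and the paper describes no test of the interaction. Named were all variant genes, the 12 HIST genes with the highest mean, other histone genes called with a change of at least 1.5-fold, and in each list the up to 3 largest called changes per direction. The histone genes, the lists and these rules were chosen with earlier results of these data known. Scripts were tested on simulated data. Figures and sequence searches used Python 3.11.15, pandas 2.3.3, NumPy 2.4.6 and matplotlib 3.10.9. An exact permutation test of 3 against 3 libraries cannot go below p = 0.1 and was not used.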

Additional observations from a re-analysis of the deposited data

Results flagged for a closer look

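For 10 histone genes the change with KDM3A-sh2 differed between the lines by the interaction test over all 12 libraries. The difference on the log2 scale, the Rh30 change less the RD change, was 0.96 for H1FX, 0.63 for H2AFY2, 0.62 for H1F0, 0.61 for H2AFX, 0.40 for H2AFV, 0.23 for H2AFY and 0.19 for H3F3B among the variant genes, and 0.44 for HIST1H1C and 1.20 for HIST1H2BH among the replication-dependent genes. For H2AFJ it was -0.92, since H2AFJ rose in RD and stayed at or below 0.0983 FPKM in Rh30. HIST1H2BH was likewise near 0 in Rh30, where its Scramble libraries were listed at 0, 0 and 0.247 FPKM, so its difference and that of H2AFJ rest on the RD libraries. H1F0, H2AFV, H2AFY and H3F3B fell in both lines and fell more in RD on the log2 scale. For H2AFY the difference was not called in the alternative test on unlogged FPKM (adjusted p = 0.557). In H2AFX and H2AFY2 the fall in RD stood beside a change in Rh30 that did not pass the test, and H2AFX was higher in all 3 Rh30 KDM3A-sh2 libraries than in any Rh30 Scramble library.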

How the results depend on the processing

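Of 98 results for named genes, 60 passed the threshold, 50 of these kept their call and direction in all alternatives run on them, 10 lost the call in at least 1, and 0 changed sign. All 10 were changes with KDM3A-sh2 or a difference of these between lines, and none was a comparison of the Scramble groups. Requiring a 1.5-fold change left 6 lower and 4 higher histone genes in RD, and 6 that differed between the lines. The 6 lower were the variant genes H1F0, H1FX and H3F3C, and HIST1H2BH, HIST1H3C and HIST2H2AC. The 4 higher were H2AFJ, HIST2H2BE, HIST1H4H and the pseudogene entry HIST1H1PS1. In Rh30 the same requirement left 1 lower and 1 higher, the pseudogene entries HIST1H3PS1 and HIST1H1PS1. A filter of 10 FPKM in 1 library left 4 higher in RD, 1 higher in Rh30 and 17 that differed between the Scramble groups, with fewer genes tested. The alternative test on unlogged FPKM left 4 higher in RD, and a fit over all 12 libraries gave 5 higher in Rh30. With single libraries left out, 3 to 6 genes were lower and 1 to 2 higher in Rh30. The cause of these differences was not tested.

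Replicate numbers did not pair the libraries, as deviations of same-numbered libraries correlated between -0.074 and 0.056. With the replicate number as a block, 12 genes were lower and 7 higher in RD, and 4 lower and 2 higher in Rh30, where H2AFV (adjusted p = 0.0601) and H2AFY (0.0797) lost their calls, as H3F3A (0.0699) and HIST2H2AC (0.0912) did in RD.

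Signs changed for results that had not passed the threshold. With libraries scaled to the same sum, the difference between lines was -0.041 for H3F3A and -0.055 for HIST1H2BJ, HIST1H2BJ in Rh30 was -0.0020 and H3F3C between the Scramble groups was -0.092. With median ratio scaling, the difference between lines was -0.011 for H3F3A and -0.025 for HIST1H2BJ, HIST1H2BJ in Rh30 was -0.013 and HIST3H2A in RD was -0.0019. With its pseudogene entries added, the difference for H3F3A was 0.14 and passed the threshold (adjusted p = 0.0247). The test on unlogged FPKM put the difference for HIST1H2BJ at -0.032. With single libraries left out, the difference between lines ran from -0.032 to 0.083 for H3F3A, from -0.20 to 0.22 for HIST1H2BJ, from -0.0064 to 0.20 for HIST3H2A, from -0.47 to 0.22 for HIST1H3E and from -0.019 to 0.57 for HIST1H1PS1. In RD, HIST1H2BJ ran from -0.12 to 0.22, HIST1H3PS1 from -0.30 to 0.053 and HIST3H2A from -0.023 to 0.062. In Rh30, HIST1H2BJ ran from -0.17 to 0.24, HIST1H2BC from -0.19 to 0.082 and HIST1H4H from -0.43 to 0.079, and H3F3C between the Scramble groups from -0.019 to 0.056. Scaling also moved the balance over all genes. Of the genes called in Rh30, 53.7% were higher, compared with 43.5% with median ratio scaling, and of those that differed between lines, 51.7% had the higher value in Rh30, compared with 40.6% with the same sum per library.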
